A study of Homo sapiens with 42 samples.

Results

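Nuclei of subconfluent SHSY5Y cells were compared with the cytoplasm of the same culture condition by small RNA sequencing, in 3 nuclear and 3 cytoplasmic libraries of the 42 of the series, chosen by the names of their columns in the deposited count table. SHSY5Y is a human neuroblastoma line, wild type by its label, untreated and grown in RPMI medium with fetal bovine serum and antibiotics to subconfluency. The cells were lysed in a hypotonic buffer with detergent, the supernatant was taken as cytoplasm, and the washed pellet was taken as nuclei. The study asked how the Argonaute (AGO) proteins and their miRNAs move with cell density, and it also sequenced confluent SHSY5Y cells, HEK293 embryonic kidney and A375 melanoma cells, and RNA bound to AGO1-4 in HEK293. All groups used here are single established lines, nothing says that the replicates of the fractions were separate cultures (the AGO1-4 IP libraries are labelled biological replicates), and p-values therefore measure only the spread between these libraries, which may be technical.

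A miRNA is cut from a hairpin precursor by Drosha in the nucleus and by Dicer in the cytoplasm. Usually 1 arm of the hairpin is kept by an AGO protein as the guide, while the other arm, the passenger, is degraded. The guide finds mRNAs through its seed, and this silencing is best known from the cytoplasm, but AGO proteins and mature miRNAs have also been found in nuclei. For subconfluent SHSY5Y cells, however, the study describes its blots as showing no nuclear AGO2, and its methods place AGO2 predominantly in the cytoplasm. Neuroblastoma cells express neural miRNAs such as miR-124-3p and miR-137-3p together with the growth-promoting miR-17-92 cluster, a target of MYC proteins.

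The sequences on which the results turn are given here from RefSeq (GRCh38.p14), 5′ to 3′, with bases 2 to 8, the seed, in capitals. Of the entries tested, 308 of 348 matched a RefSeq mature sequence by name. The first set holds entries that were higher in nuclei by the largest factors or at the highest level.
miR-1248: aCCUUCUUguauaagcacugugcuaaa
miR-1277-5p: aAAUAUAUauauauauguacguau
miR-12135: uAAAGGUUuguuuguaaa
miR-335-5p: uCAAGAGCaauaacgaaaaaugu
miR-21-5p: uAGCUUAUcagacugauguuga
The second set holds entries that were lower in nuclei, 2 of which, miR-1268a and miR-1268b, differ by length at the 3′ end alone and may share reads.
miR-6820-3p: uGUGACUUcuccccugccacag
miR-1268a: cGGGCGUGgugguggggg
miR-1268b: cGGGCGUGguggugggggug
miR-370-3p: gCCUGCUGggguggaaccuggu
miR-4516: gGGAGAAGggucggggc
miR-4284: gGGCUCACaucaccccau
The third set pairs arms of the same hairpin that moved in opposite directions, although miR-92a-3p can also come from a copy on chromosome X.
miR-27a-3p: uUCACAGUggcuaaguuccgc
miR-27a-5p: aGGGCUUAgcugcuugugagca
miR-92a-3p: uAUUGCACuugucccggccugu
miR-92a-1-5p: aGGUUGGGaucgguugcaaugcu
miR-23a-3p: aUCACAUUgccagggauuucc
miR-23a-5p: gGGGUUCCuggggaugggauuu
The fourth set holds the 3 guides of the miR-183, miR-96 and miR-182 cluster, which are transcribed together and have related but unequal seeds, and miR-29b-3p, whose last bases AGUGUU were described in human cells as a nuclear localization element.
miR-183-5p: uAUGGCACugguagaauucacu
miR-96-5p: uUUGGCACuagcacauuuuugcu
miR-182-5p: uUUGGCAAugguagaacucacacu
miR-29b-3p: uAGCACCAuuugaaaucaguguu

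The nuclear libraries held 34565, 32901 and 53775 counts, and the cytoplasmic libraries held 20007, 35177 and 42729 counts. Of 2657 entries in the table, 2399 had a count in these 6 libraries, and 348 reached 10 counts in at least 3 of the 11 SHSY5Y fraction libraries and were tested. Pearson's r of log2 CPM (TMM-scaled counts per 1000000, prior count 2) over the tested entries was 0.96 for each pair of nuclear libraries, 0.91 to 0.93 between cytoplasmic libraries and 0.77 to 0.88 between fractions. The 11 neural markers summed to 23069 to 26848 unscaled CPM in the nuclear and 24441 to 26097 in the cytoplasmic libraries of SHSY5Y, against 8758 to 17970 in subconfluent HEK293 and 5725 to 10841 in subconfluent A375 libraries. miR-124-3p, the most neuron-specific miRNA, had 138 nuclear and 119 cytoplasmic counts in SHSY5Y, against 3 and 7 in HEK293 and 5 and 2 in A375. By CPM of the pooled counts, miR-149-5p was lower, at 429 and 511 in SHSY5Y against 1720 and 795 in HEK293 and 1101 and 532 in A375. miR-128-3p had 1930 and 1266 against 1992 and 1869 in HEK293, and miR-218-5p had 4421 against 4467 in nuclei. The remaining neural markers were higher in both fractions of SHSY5Y than in the same fraction of either line. The 6 epithelial markers, with miR-205-5p at 0 in nuclei, summed to 167 to 289 CPM in nuclei and 50.0 to 256 in cytoplasm, and the 5 melanocyte markers to 37.2 to 60.8 and 56.9 to 117, with miR-146a-5p and miR-509-3p at 0 in nuclei. The 7 markers of mesenchymal cells, none of them at 0, summed to 37434 to 41198 CPM in nuclei and 20572 to 26750 in cytoplasm, most of it miR-21-5p, and the part of such cells in the results was not tested. The 9 entries taken as markers of the nuclear fraction, which derive from small nucleolar RNA, summed to 810.1 to 1793 CPM in nuclei and 369.6 to 655 in cytoplasm. miR-1248 gave 107 of the nuclear and 11 of the cytoplasmic counts, and the other 8 summed to 42 counts and 145 to 456 CPM in nuclei and to 43 counts and 256 to 599.8 CPM in cytoplasm. The nuclear and cytoplasmic ranges of those 8 overlapped. Each library of a pool carried its own 3′ adapter, so fraction and adapter cannot be told apart. The same adapters were used for the same fractions and replicates of HEK293 and A375, so comparisons with those lines do not separate them either. In the averages published with the study, the columns for subconfluent cytoplasm and confluent nucleus are exchanged relative to the deposited names, and the tests were also run with those columns exchanged.

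Most of the abundant guide miRNAs were higher in nuclei, and a large set of GC-rich entries at moderate or low level was lower. By edgeR's quasi-likelihood test at an adjusted p under 0.05, 75 of 348 entries (21.6%) were higher and 120 (34.5%) were lower in nuclei than in cytoplasm. For 210 entries (60.3%) the 3 nuclear libraries did not overlap with the 3 cytoplasmic libraries. A value in these libraries is a share of the counts, so a rise of 1 entry and a loss of others cannot be told apart, nor can fewer cells and less RNA per cell. Over all 348 entries the median log2 fold change was -0.23. The split between directions depended on the scaling, with 42 higher and 145 lower under library totals, which moved every entry down by a median of 0.32, and 80 higher and 98 lower by DESeq2. Without cytoplasmic replicate 2, 113 entries were higher and 99 lower. The centre of the TMM scaling moved with the libraries in the fit, and the median over all tested entries was 0.28 without that library, -0.13 to 0.28 over the 6 fits that each left out 1 library, -0.04 with the 6 subconfluent libraries alone and -0.10 by DESeq2. Values from those fits are therefore to be read against their own median. The exchanged naming sets the 3 nuclear libraries against only 2 libraries, of 17488 and 11160 counts, since the third held 31 counts and was left out. The part of this smaller group in lost calls was not tested. With the columns exchanged, 69 were higher and 58 lower. Of these, 40 and 46 had the same call under the deposited names, and 1 of the 69 had been called lower there. Under every alternative run except exchanged columns, GC offsets and the fit of IP-detected entries alone, 37 of the 75 and 64 of the 120 kept their call.

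**Figure D1:**
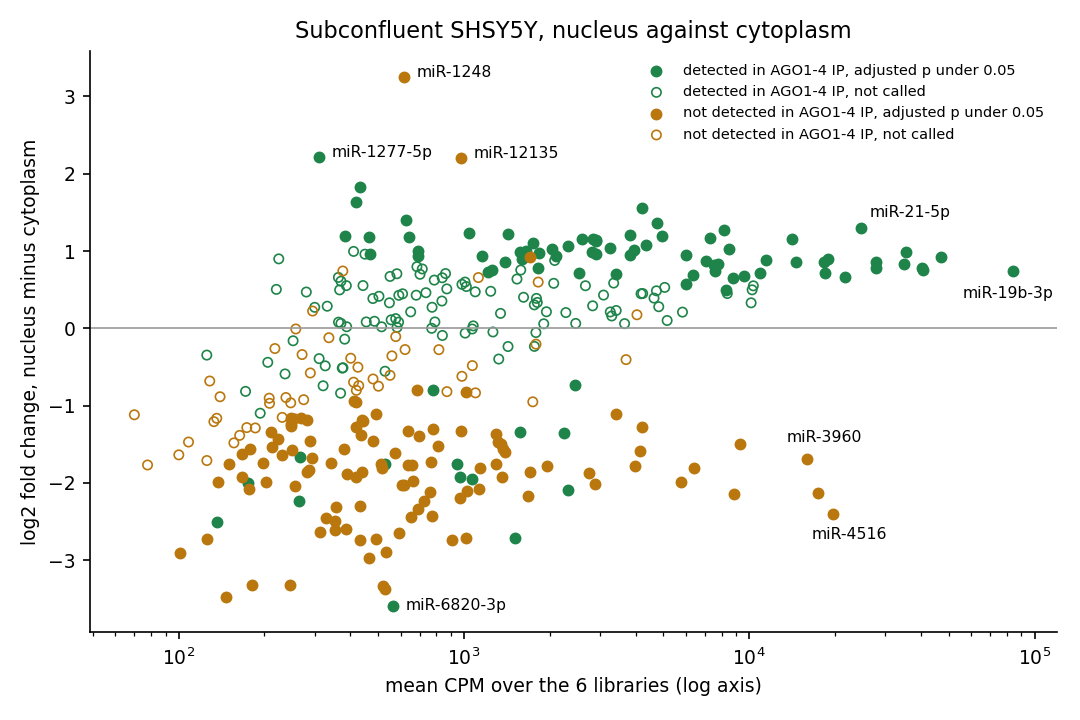
Log2 fold change of nucleus minus cytoplasm (vertical axis) against the mean CPM over the 6 libraries (horizontal log axis) for the 348 tested entries of subconfluent SHSY5Y, 1 point per entry, coloured by detection in the AGO1-4 IP of HEK293 and filled where the edgeR adjusted p was under 0.05. The filled points above 0 are mostly entries detected in the IP (72 of 75) and those below 0 mostly entries not detected there (105 of 120), and 17 of the 23 entries at 10000 CPM or more were higher.

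Among the 23 entries with a mean of at least 10000 CPM, 17 were higher in nuclei, 3 were lower and 3 did not pass the test. Among the 198 entries under 1000 CPM, 12 were higher and 86 lower. The 10 most abundant nuclear entries took 41.8%, 39.2% and 39.5% of the counts of the nuclear libraries, against 27.05%, 29.6% and 24.5% of the cytoplasmic libraries. All 10 rose in nuclei.

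The most abundant entry in both fractions was miR-19b-3p, a guide of the miR-17-92 cluster. It was measured at 101069, 91778 and 123478 CPM in nuclei, against 60392, 69330.5 and 58669.7 CPM in cytoplasm (log2 fold change 0.75, standard error 0.17, edgeR adjusted p = 0.0012). The nuclear libraries were all above the cytoplasmic ones. The same held for miR-19a-3p, its seed sister, with 57896, 49478 and 77274 CPM in nuclei and 28069.8, 38221 and 31224 CPM in cytoplasm (log2 fold change 0.92, standard error 0.22, edgeR adjusted p = 0.0016). miR-20a-5p of that cluster, which represses E2F1, had 48069.8, 39980.2 and 53635 CPM in nuclei, against 19664, 26309.8 and 25398 CPM in cytoplasm (log2 fold change 0.99, standard error 0.18, edgeR adjusted p = 2.33e-04), again without overlap. miR-92a-3p had 47243, 54964 and 51416 CPM in nuclei and 34975, 29229.9 and 26617 CPM in cytoplasm (log2 fold change 0.76, standard error 0.18, edgeR adjusted p = 0.0017), and with the columns exchanged its value was -0.22 and was not called. Neither miR-19b-3p nor miR-19a-3p was called with GC offsets (0.29 and 0.32). miR-17-5p, which shares its seed with miR-20a-5p, averaged 51131 ± 3222 CPM in nuclei and 29737 ± 414 CPM in cytoplasm (SD, n = 3 each; log2 fold change 0.78, standard error 0.16, edgeR adjusted p = 6.25e-04).

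The miR-17-92 cluster with its paralogs had 17 tested entries, of which 10 were higher, 2 were lower and 5 did not pass the test, with a median log2 fold change of 0.71 beside -0.23 over all tested entries. Together they made 34.2%, 30.3% and 33.2% of the counts of the nuclear libraries, against 22.4%, 24.2% and 21.3% of the cytoplasmic libraries. The 2 that fell were both passenger arms, miR-19b-1-5p (log2 fold change -1.34, edgeR adjusted p = 7.92e-04) and miR-92a-1-5p (-2.23, edgeR adjusted p = 0.0012). The largest rise of the list was also that of a less abundant arm, miR-17-3p (1.22, edgeR adjusted p = 0.0013).

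The let-7 family, guides that repress LIN28 and RAS mRNAs and mark differentiated cells, rose in 10 of 13 tested entries, fell in 0 and had a median log2 fold change of 0.94. At an unadjusted p under 0.05 no further member fell under the edgeR test, and DESeq2 also called 10 higher and 0 lower. With library totals 7 rose and 1 fell, with the columns exchanged 5 rose and 0 fell, with GC offsets 2 rose and 0 fell, and with IP-detected entries alone 1 of 12 rose and 0 fell (median 0.49). All 9 entries with the let-7 seed GAGGUAG were higher, with log2 fold changes of 0.69 to 1.16. The 3 members that did not pass were 3p arms, let-7b-3p (-0.80), let-7f-2-3p (-0.49) and let-7i-3p (0.21), while another 3p arm, let-7d-3p, rose (0.85, edgeR adjusted p = 0.027). let-7f-5p had 17435, 21094 and 20222 CPM in nuclei, against 8806, 8327 and 9189 CPM in cytoplasm (log2 fold change 1.16, standard error 0.22, edgeR adjusted p = 3.17e-04), and the fractions did not overlap. The family made 6.58%, 7.33% and 6.28% of nuclear counts and 5.003%, 4.30% and 3.94% of cytoplasmic counts. Members of this family differ by few bases, and how reads that fit several of them were counted is not given in the sources used here.

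Other guide families moved the same way. The 3 tested miR-29 entries, repressors of collagen mRNAs, all rose, with a median of 1.00. miR-29b-3p, which carries the AGUGUU end printed above, had 7576, 7768 and 14637 CPM in nuclei, against 3803, 9367 and 3559 CPM in cytoplasm (log2 fold change 0.84, standard error 0.33, edgeR adjusted p = 0.034), and those ranges overlapped. Its sisters without that end rose by 1.08 (miR-29a-3p) and 1.00 (miR-29c-3p) on the log2 scale. Among entries with a matched sequence, the other that holds AGUGUU, miR-199a-5p, had a log2 fold change of 0.29 and was not called (edgeR adjusted p = 0.45). Tested entries without a matched sequence, such as miR-199b-5p (0.54, not called), could not be searched. The motif was searched in the mature strand alone and was in 2 of 308 sequences (0.649%). The miR-30 family had 5 of 8 entries higher and 0 lower (median 0.85), where the 3 that were not called were 3p arms. The miR-15/16 family, which represses cyclin and BCL2 mRNAs, had 3 of 6 higher and 0 lower (median 0.74). Both tested miR-181 entries rose (median 1.01). In the miR-99/100 and miR-125 families 2 of 5 entries rose, miR-99a-5p and miR-100-5p, and the miR-125 guides had log2 fold changes of 0.23 and 0.28, without passing the test. The list of guide miRNAs common to most tissues had 10 of 18 entries higher and 0 lower (median 0.60), and 3 higher and 1 lower with library totals. In these lists 0 entries were lower by DESeq2 or at an unadjusted p under 0.05 by edgeR. The counts depended on the setting. Of the miR-29 entries 1 was higher with library totals, with GC offsets, with the 6 libraries alone and with IP-detected entries alone, and of the miR-30 entries 2 were higher with library totals and 0 with IP-detected entries alone. With IP-detected entries alone 1 entry of the miR-15/16 list, 0 of the miR-181 list, 2 of the miR-17-92 list and 1 of the common list were higher, and with the columns exchanged 0 of the miR-181 entries were. The medians of the let-7, miR-17-92, miR-29, miR-30, miR-15/16 and miR-181 lists and of the common list were above 0 under every alternative that was run, while that of the miR-99/100 and miR-125 families was -0.34 with the columns exchanged and -0.02 with IP-detected entries alone.

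The clusters of miR-23, miR-27 and miR-24, which are transcribed from chromosomes 9 and 19, had 5 of 8 entries higher and 2 lower (median 0.67), the 2 being the passenger arms miR-27a-5p and miR-23a-5p. Of the miR-130, miR-301 and miR-454 family 1 of 5 entries was higher and 0 were lower (median 0.33, below the 0.54 of the 191 IP-detected entries). This was miR-130a-3p (1.02), while miR-301a-3p (0.06), miR-130b-3p (0.33), miR-301b-3p (-0.05) and miR-454-3p (0.70), which share its seed AGUGCAA, did not pass the test. Of the 5, 3 were higher with the columns exchanged. Of miR-221 and miR-222, repressors of the cell cycle inhibitor CDKN1B, miR-221-3p rose (0.87, edgeR adjusted p = 0.0028) and miR-222-3p was not called (0.80). The entries from HOX clusters had 2 of 6 higher, miR-196a-5p and miR-196b-5p, and 1 lower, miR-615-5p (median 0.73). Among 7 entries of blood, endothelial, liver, muscle and mesenchymal cells, 1 was higher and 0 were lower (median 0.39). In this list and in that of miR-130, miR-301 and miR-454, 0 entries were lower by DESeq2 or at an unadjusted p under 0.05 by edgeR. The single tested entry of the miR-34 and miR-449 family, miR-34a-5p, a target of p53, had a log2 fold change of 0.62 and was not called, although with the columns exchanged it was called higher (1.91). Not called either were the 2 tested entries made without the Microprocessor (median 0.33). No entry of the miR-200, melanocyte, chromosome 19 and pluripotency lists had enough counts to be tested.

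**Figure D2:**
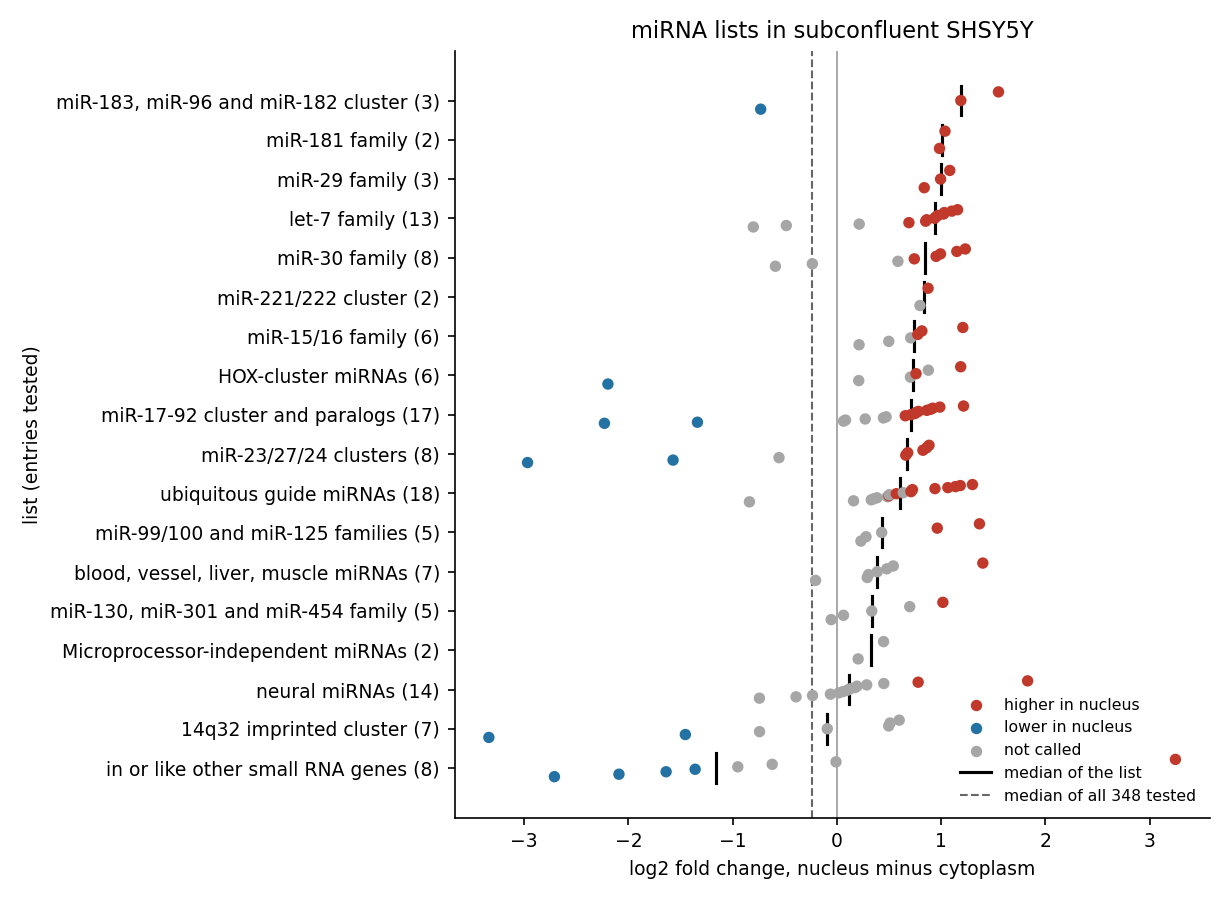
Log2 fold change of nucleus minus cytoplasm (horizontal axis) for the tested entries of 18 miRNA lists in subconfluent SHSY5Y, 1 point per entry, red where higher and blue where lower at an edgeR adjusted p under 0.05, with the median of each list as a black bar and the median of all 348 tested entries (-0.23) dashed. The let-7 list lies at a median of 0.94, the neural list at 0.11 and the entries in or like other small RNA genes at -1.16, with miR-1248 alone at 3.25.

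The neural miRNAs lay near 0 under the deposited names. Of 14 tested entries 2 were higher, 0 were lower (0 also at an unadjusted p under 0.05) and 12 did not pass the test, with a median of 0.11, and DESeq2 called 3 higher and 0 lower. With library totals 1 was higher and 1 lower (median -0.21), and with the columns exchanged 9 were higher and 0 lower (median 1.502). The list made 2.96%, 2.60% and 2.80% of nuclear counts and 2.87%, 2.95% and 2.85% of cytoplasmic counts. miR-9-5p, a regulator of neural progenitors, had 4665, 3350.1 and 3192 CPM in nuclei and 3653, 3527 and 3559 CPM in cytoplasm (log2 fold change 0.06, standard error 0.23, edgeR adjusted p = 0.84). miR-124-3p had 1323, 1657 and 1322 and 1351, 1069.7 and 1341 CPM in the same order (log2 fold change 0.19), and miR-137-3p averaged 4292 ± 937 and 3789.9 ± 589 CPM (SD, n = 3 each). The nuclear and cytoplasmic values of these 3 overlapped. The 2 that rose were miR-128-3p (log2 fold change 0.78, standard error 0.32, edgeR adjusted p = 0.042), whose call was lost with library totals (0.44), and miR-335-5p, which lies in an intron of the imprinted gene MEST.

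The 12 largest rises among entries with at least 100 CPM and no overlap between fractions ran from 1.22 to 3.25 on the log2 scale. The largest was that of miR-1248, at chr3:186786675-186786701 on the plus strand, within the small nucleolar RNA gene SNORA81 and an annotated exon of EIF4A2. Small nucleolar RNAs guide the modification of ribosomal RNA and stay in the nucleus. miR-1248 had 761, 1619.8 and 997 CPM in nuclei, against 50.0, 116 and 146 CPM in cytoplasm, from 107 nuclear and 11 cytoplasmic counts in all (log2 fold change 3.25, standard error 0.47, edgeR adjusted p = 2.42e-05). Every nuclear library was above every cytoplasmic library. Fits without 1 of the 6 libraries gave 3.20 to 3.76, but with the columns exchanged the value was 0.48 and was not called (edgeR adjusted p = 0.41). The entry had 2 counts over the 6 AGO1-4 IP libraries of HEK293.

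miR-1277-5p, at chrX:118386401-118386424 in an intron of WDR44, is the entry poorest in GC among those with a sequence (12.5%). It had 496, 368 and 648 CPM in nuclei, against 150.1, 173 and 24.4 CPM in cytoplasm, from 51 and 10 counts (log2 fold change 2.22, standard error 0.54, edgeR adjusted p = 0.002). The fractions did not overlap. It was not called with GC offsets (1.09) or with the columns exchanged (0.19). miR-12135, at chr15:73299962-73299979 in an intron of the netrin receptor gene NEO1, had 1191, 1178 and 2494 CPM in nuclei and 200.1, 318 and 487 CPM in cytoplasm (log2 fold change 2.20, standard error 0.47, edgeR adjusted p = 7.57e-04), with 1 count in the IP. These values did not overlap, and with exchanged columns it was no longer called (1.33, edgeR adjusted p = 0.064). miR-335-5p, at chr7:130496126-130496148, had 893, 405 and 723 CPM in nuclei and 200.1, 145 and 219 CPM in cytoplasm (log2 fold change 1.83, standard error 0.44, edgeR adjusted p = 0.0018). Its values did not overlap, and it was called in every alternative in which it passed the filter, at 1.11 to 2.21.

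miR-21-5p, which lies at the VMP1 locus and represses the tumour suppressor PDCD4, rose most among the abundant entries. It had 35432, 36225 and 33413 CPM in nuclei, against 12709, 16971 and 12918 CPM in cytoplasm (log2 fold change 1.30, standard error 0.19, edgeR adjusted p = 2.42e-05). The fractions were far apart, and miR-21-5p was called in every alternative run, at 0.77 with GC offsets and 1.69 with exchanged columns. miR-22-3p, whose host gene is MIR22HG, had 8105, 11449 and 15136 CPM in nuclei and 4303, 5609 and 4436 CPM in cytoplasm (log2 fold change 1.27, standard error 0.28, edgeR adjusted p = 9.26e-04). miR-99a-5p, a repressor of MTOR, had 8403, 3718 and 8378 CPM in nuclei and 2902, 2804 and 2291 CPM in cytoplasm (log2 fold change 1.37, standard error 0.32, edgeR adjusted p = 0.0014). Neither overlapped between fractions, but for miR-99a-5p nuclear replicate 2 lay nearer to the cytoplasmic values than to the other nuclear ones, and with exchanged columns it was not called (0.47). The remaining large rises were those of miR-582-3p (1.64), from an intron of PDE4D, miR-126-5p (1.40), from an intron of EGFL7 and known from endothelial cells, miR-30d-5p (1.23) and miR-17-3p (1.22). miR-582-5p, the more abundant arm of its hairpin, rose by 0.99, and miR-126-3p had a log2 fold change of 0.48 and was not called.

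**Figure D3:**
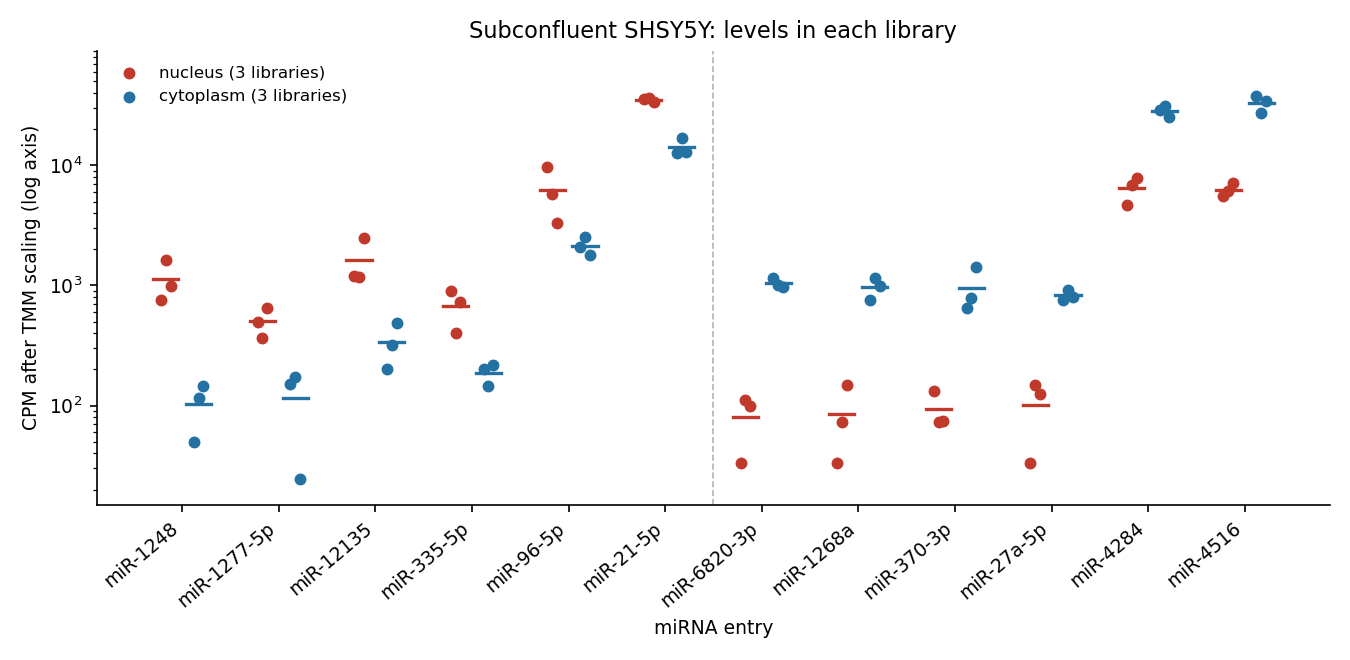
CPM after TMM scaling (vertical log axis) of 12 entries in each library of subconfluent SHSY5Y, with 3 nuclear libraries in red left of 3 cytoplasmic libraries in blue and the group mean as a bar. The 6 entries left of the dashed line are higher in every nuclear library (miR-1248 761 to 1619.8 CPM in nuclei and 50.0 to 146 in cytoplasm) and the 6 right of it lower (miR-4516 5525 to 7131 CPM in nuclei and 27322 to 37476 in cytoplasm).

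The 3 guides of the miR-183, miR-96 and miR-182 cluster, which lie within a few kilobases on chromosome 7 and are best known from sensory organs, did not move together. miR-96-5p had 9726, 5779.8 and 3291 CPM in nuclei, against 2101, 2515 and 1779 CPM in cytoplasm (log2 fold change 1.55, standard error 0.33, edgeR adjusted p = 6.81e-04). miR-182-5p had 5293, 9866 and 5361 CPM in nuclei and 3903, 3383 and 1804 CPM in cytoplasm (log2 fold change 1.19, standard error 0.30, edgeR adjusted p = 0.0023). Both were without overlap, and without nuclear replicate 3, the lowest for miR-96-5p, its log2 fold change was 2.33. miR-183-5p, in contrast, had 1588, 1841 and 2069.6 CPM in nuclei and 3302, 2689 and 3193 CPM in cytoplasm (log2 fold change -0.73, standard error 0.25, edgeR adjusted p = 0.018). Its fall was small and was called in 0 of 6 fits that left out a library, with values from -0.59 to -0.35 beside medians over all entries of -0.13 to 0.28, while it was called with library totals (-1.06), with GC offsets (-1.14) and by DESeq2 (-0.61).

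Among the entries that were lower in nuclei, the most abundant were miR-4516, miR-4284 and miR-3960, none of which had a count in the AGO1-4 IP. miR-4516, at chr16:2133120-2133136, was the second most abundant entry of the cytoplasm. It had 5525, 6111 and 7131 CPM in nuclei, against 37476, 27322 and 34222 CPM in cytoplasm (log2 fold change -2.40, standard error 0.20, edgeR adjusted p = 6.00e-08). miR-4284, at chr7:73711327-73711344, had 4665, 6921 and 7879 CPM in nuclei and 29020.4, 30965 and 25155 CPM in cytoplasm (log2 fold change -2.13, standard error 0.22, edgeR adjusted p = 1.30e-06). miR-3960 had 6649.7, 6553 and 9500.2 CPM in nuclei and 17062, 20065 and 36026 CPM in cytoplasm (log2 fold change -1.69, standard error 0.29, edgeR adjusted p = 1.31e-04). For each of the 3 the nuclear values lay below all cytoplasmic values. With the columns exchanged miR-4516 and miR-3960 were still called lower (-1.02 and -1.33), and miR-4284 was not (-0.58, edgeR adjusted p = 0.072).

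The 12 largest falls among entries with at least 100 CPM and no overlap ran from -3.59 to -2.73. miR-6820-3p, in an intron of the RNA polymerase subunit gene POLR2F, was lowest, at 33.1, 110.4 and 99.7 CPM in nuclei and 1151, 1012 and 975 CPM in cytoplasm, from 8 and 98 counts (log2 fold change -3.59, standard error 0.42, edgeR adjusted p = 4.46e-06). miR-1268a had 33.1, 73.6 and 149.6 CPM in nuclei and 751, 1156 and 999 CPM in cytoplasm (log2 fold change -3.37, standard error 0.49, edgeR adjusted p = 2.42e-05), and its near copy miR-1268b, in an intron of CCDC40, had a log2 fold change of -2.73. Since reads of these entries may be split between them, their separate values are uncertain. miR-370-3p, of the imprinted 14q32 cluster, had 132, 73.6 and 74.8 CPM in nuclei and 650.5, 781 and 1414 CPM in cytoplasm (log2 fold change -3.34, standard error 0.46, edgeR adjusted p = 2.32e-05). None of these 4 overlapped between fractions. With the columns exchanged they were not called (-1.20, -0.45, 0.01 and -1.74 for miR-6820-3p, miR-1268a, miR-1268b and miR-370-3p).

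The other large falls were those of miR-6749-3p, miR-27a-5p, miR-6765-5p, miR-6088 and miR-4684-3p, with log2 fold changes between -3.32 and -2.73, and of 3 entries with only 2 or 3 nuclear counts. miR-6880-3p had 2 nuclear and 26 cytoplasmic counts, a ratio of nuclear to cytoplasmic share of 0.0621 with a 95% exact counting interval of 0.00715 to 0.248. miR-3138 had 3 and 34 counts (0.0713, interval 0.0140 to 0.227), and miR-5591-3p had 2 and 18 (0.0897, interval 0.0101 to 0.375). These intervals cover counting error only, and miR-5591-3p was not called without cytoplasmic replicate 3 (-2.27) or nuclear replicate 3 (-1.83) and had -5.27 without nuclear replicate 2. Of the 7 tested entries of the 14q32 cluster, miR-370-3p and miR-668-3p (-1.45) fell and 0 rose, and the median was -0.09. DESeq2 called miR-370-3p lower and miR-369-3p, the 1 further member with an unadjusted p under 0.05 by edgeR, higher (0.71). miR-668-3p was not called by DESeq2 (adjusted p = 0.052) and in 4 of the 6 fits that left out a library.

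Entries listed because they lie in, or resemble, other small RNA genes moved in both directions. In the annotation miR-1248 lies within such a gene, while no gene overlaps miR-1260a or miR-1260b on the same strand. Of 8 tested, 1 rose (miR-1248), 4 fell and 3 were not called, with a median of -1.16. miR-1260a, which resembles a tRNA fragment, had 265, 368 and 549 CPM in nuclei, against 1801, 3585 and 2511 CPM in cytoplasm (log2 fold change -2.71, standard error 0.34, edgeR adjusted p = 8.07e-06), and miR-1260b, which has the same seed, averaged 874 ± 129 CPM in nuclei and 3752 ± 412 CPM in cytoplasm (SD, n = 3 each; log2 fold change -2.09, standard error 0.30, edgeR adjusted p = 2.42e-05). The nuclear libraries were below the cytoplasmic ones for both. The other 2 that fell were miR-4454 (-1.36) and miR-5100 (-1.64). With the columns exchanged miR-1260a and miR-1260b had log2 fold changes of -0.04 and 0.18.

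Both arms of 46 hairpins were tested. The more abundant arm had the higher log2 fold change in 28 of them and the less abundant arm in 18, and the medians were 0.51 and 0.08. The more abundant arm was called higher in 19 hairpins and lower in 5, and the less abundant arm higher in 8 and lower in 10. In 4 hairpins the more abundant arm rose while the other fell, and in 0 the reverse was called. Those 4 were miR-27a, miR-92a, miR-23a and miR-19b. miR-27a-3p, the guide, which targets PPARG, had 47110.4, 50030.5 and 37028 CPM in nuclei, against 29471, 27119 and 19183 CPM in cytoplasm (log2 fold change 0.83, standard error 0.23, edgeR adjusted p = 0.0054). Its passenger miR-27a-5p had 33.1, 147 and 125 CPM in nuclei and 751, 925 and 804 CPM in cytoplasm, from 10 and 80 counts (log2 fold change -2.97, standard error 0.45, edgeR adjusted p = 3.84e-05). Neither overlapped, and the directions were opposite.

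The neighbouring hairpin miR-23a showed the same split, with miR-23a-3p at 14821 CPM in nuclei and 8085 CPM in cytoplasm (0.88) and miR-23a-5p at 132 and 368 CPM (-1.57, edgeR adjusted p = 0.018), although the fall of miR-23a-5p was not called by DESeq2 (adjusted p = 0.068) or in 2 of the 4 fits that left out a library and still tested it. miR-92a-1-5p had 99.2, 36.8 and 125 CPM in nuclei, against 450.3, 318 and 561 CPM in cytoplasm (-2.23), which was called in all 6 fits that left out a library. With exchanged columns miR-27a-5p and miR-19b-1-5p had positive log2 fold changes (1.55 and 1.06), and no passenger arm of these 4 hairpins was called. miR-615, in an intron of HOXC5, went the other way by level. Its more abundant arm miR-615-5p had 198, 331 and 474 CPM in nuclei and 1751, 1706 and 1341 CPM in cytoplasm (log2 fold change -2.20, standard error 0.32, edgeR adjusted p = 2.55e-05), while miR-615-3p had a log2 fold change of 0.71 and was not called (edgeR adjusted p = 0.085). miR-615-5p had 1.07 with the columns exchanged and was not called.

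**Figure D4:**
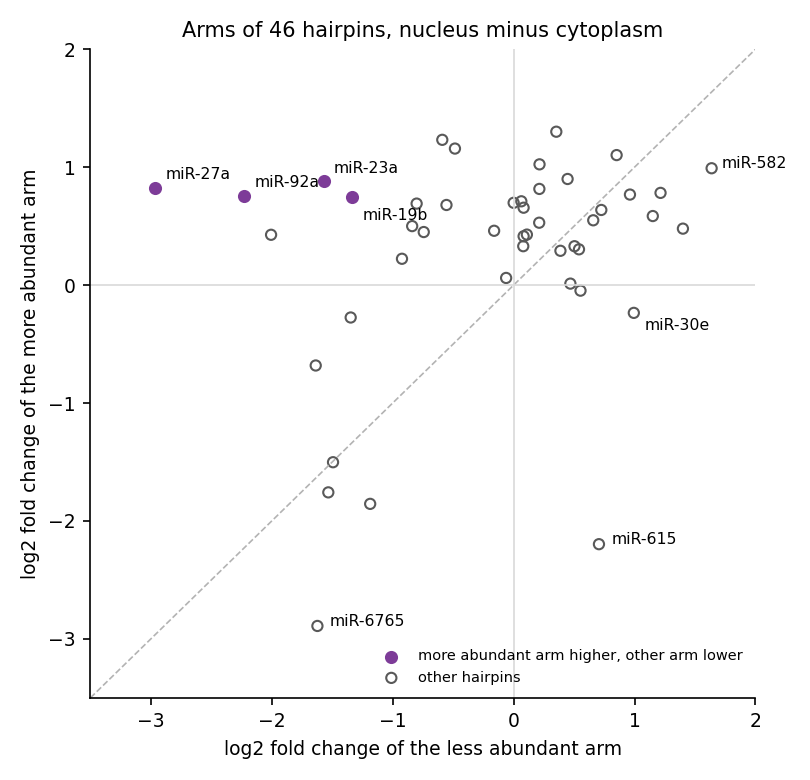
Log2 fold change of nucleus minus cytoplasm of the more abundant arm (vertical axis) against that of the less abundant arm (horizontal axis) for 46 hairpins with both arms tested in subconfluent SHSY5Y, with the line of equal change dashed. The 4 hairpins in purple, miR-27a, miR-92a, miR-23a and miR-19b, have the abundant arm higher and the other arm lower in nuclei, from 0.83 against -2.97 for miR-27a to 0.75 against -1.34 for miR-19b.

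Of the entries detected in the AGO1-4 IP more were higher than lower in nuclei and most were not called, and of the entries not detected there most were lower. In that experiment the T6B peptide, which binds all AGO proteins, was used to pull down AGO with its small RNA from HEK293 cells, and an entry counts as detected with at least 10 counts in at least 3 of the 6 IP libraries (537 entries). The labels and the study's account of its miRNA sequencing name total or whole cell lysate as the input of this IP. Its methods for the pull-down name the cytoplasmic fraction, and an IP from cytoplasm would not sample nuclear AGO. Of the 191 tested entries detected there, 72 were higher, 15 were lower and 104 were not called in SHSY5Y nuclei, with a median log2 fold change of 0.54 and quartiles of 0.08 and 0.89. Of the 157 not detected there, 3 were higher and 105 lower, with a median of -1.53 and quartiles of -1.99 and -0.95. The 3 were miR-1248, miR-12135 and miR-3123 (0.92), the last one named after its values were seen. The IP came from another line, and an entry of SHSY5Y that HEK293 does not express is also not detected there. With library totals, 40 and 2 entries of the classes were higher and 19 and 126 lower, and with exchanged columns 67 and 2 were higher and 3 and 55 lower.

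The share of counts in entries without detection in the IP was 9.55%, 11.2% and 11.6% in the nuclear libraries, against 31.9%, 29.0% and 39.3% in the cytoplasmic libraries. The mean share was 10.8% ± 1.09 in nuclei and 33.4% ± 5.32 in cytoplasm (SD, n = 3 each), a difference of -22.6 percentage points (exact two-sided permutation p = 0.1, the smallest that 3 against 3 libraries allow). All nuclear shares lay below all cytoplasmic shares. In confluent SHSY5Y the share was 31.5% and 23.4% in the 2 nuclear libraries and 62.5%, 63.8% and 68.3% in the cytoplasmic ones.

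When the 191 IP-detected entries were scaled and tested without the others, the centre moved and 13 were higher and 19 lower. The 13 were also higher in the test of all entries, and miR-1277-5p (1.77), miR-335-5p (1.37), miR-582-3p (1.18), miR-96-5p (1.15) and miR-21-5p (0.86) were among them, as was let-7f-5p (0.69), the 1 of 12 let-7 entries that was called, while miR-19b-3p (0.29), miR-92a-3p (0.30) and miR-27a-3p (0.39) were not called. The 19 included miR-6820-3p (-4.04), miR-1260a (-3.17), miR-92a-1-5p (-2.69), miR-19b-1-5p (-1.82) and miR-183-5p (-1.20). Besides 15 that were lower in the test of all entries, miR-708-5p and the less abundant arms miR-7-1-3p, miR-27b-5p and miR-374a-3p passed as lower here.

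GC content moved with the change. The median GC content of the mature sequence was 40.9% for entries that were higher, 71.4% for those that were lower and 55.8% for those not called, against 54.5% over the 308 entries with a sequence. The higher entries had GC contents of 12.5% to 54.5%, and none of the 67 with a sequence held GGGG, against 29 of 103 lower entries (28.2%) and 44 of all 308 (14.3%). UUU was in 22 of the 67 higher entries (32.8%), 9 of the 103 lower entries (8.74%) and 59 of 308 (19.2%). These motifs were searched in the mature strand as written. A first base U was found in 43 of the 67 higher (64.2%) and 24 of the 103 lower entries (23.3%), against 118 of 308 (38.3%). Sequences shorter than 20 bases were 2 of 67 and 21 of 103 (2.99% and 20.4%).

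Across entries, log2 fold change and GC content had a Pearson's r of -0.60 and a Spearman's rho of -0.64 (308 entries, which share the same 6 libraries and are not independent replicates). Within the 169 IP-detected entries r was -0.47 and rho -0.47, and within the 139 others r was -0.30 and rho -0.20. With per-library offsets for GC content, 63 of 308 entries were higher and 58 lower, 38 and 52 of them as before. Under those offsets IP-detected entries had a median of 0.51 and the others of -0.67, with 55 and 8 higher and 11 and 47 lower. The offsets take out any difference between libraries that follows GC content, whatever its source. They therefore cannot separate library preparation from other sources, and its part in the fold changes was not tested.

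**Figure D5:**
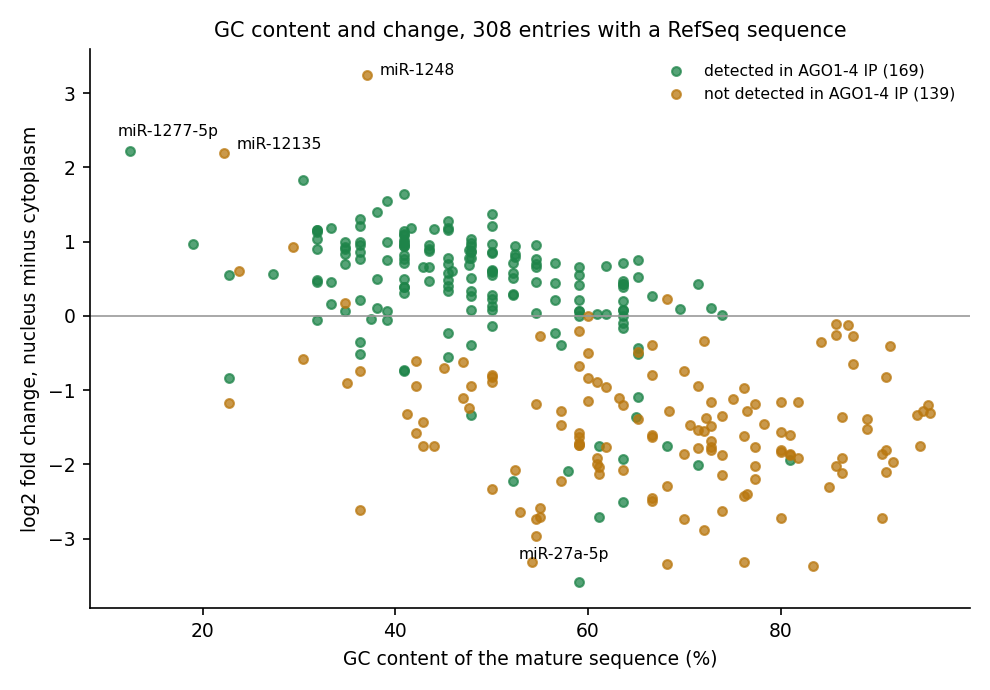
Log2 fold change of nucleus minus cytoplasm (vertical axis) against the GC content of the mature sequence in percent (horizontal axis) for 308 entries of subconfluent SHSY5Y with a RefSeq sequence, green for the 169 detected and brown for the 139 not detected in the AGO1-4 IP of HEK293. Entries over 0 lie mostly under 60% GC, and Pearson's r was -0.47 in green and -0.30 in brown.

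The difference between nucleus and cytoplasm was next compared with that in confluent SHSY5Y cells, which share no library with the subconfluent ones. In confluent cells 69 entries (19.8%) were higher and 106 (30.5%) lower in nuclei, over 2 nuclear and 3 cytoplasmic libraries, since the third nuclear library held 31 counts and was left out. Of the 75 entries higher in subconfluent nuclei, 48 were also higher in confluent nuclei (64.0% of the 75 and 69.6% of the 69). Of the 120 lower ones, 96 were lower in both (80% of the 120 and 90.6% of the 106), and 0 entries were called in opposite directions. Tested directly, the effect of localization differed between confluencies for 1 of 348 entries (0.287%), and 28 had an unadjusted p under 0.05. DESeq2 called 4 entries, 3 higher and 1 lower. The entry was miR-619-5p, with log2 fold changes of 0.66 in subconfluent and 3.88 in confluent cells, a difference of -3.23 (standard error 0.52, edgeR adjusted p = 0.0017). It had 130 nuclear and 84 cytoplasmic counts in subconfluent cells, against 108 and 17 in confluent cells.

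For the leading entries the values of both confluencies stood side by side as follows. miR-1248 had 3.25 in subconfluent and 3.55 in confluent cells, and miR-27a-5p -2.97 and -2.91. miR-335-5p had 1.83 and -0.23, and miR-12135 2.20 and 0.40, and the difference did not pass the test for either. With library totals 1 entry was higher and 19 were lower in the difference, and without cytoplasmic replicate 3 the counts were 5 and 3. Exchanging the columns leaves the difference between confluencies unchanged, since subconfluent cytoplasm and confluent nucleus enter it with the same weight.

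Over the 18 fraction libraries of the 3 subconfluent lines, 409 entries were tested in 1 fit. There, 53 entries were higher and 108 lower in SHSY5Y nuclei, against 56 and 122 in HEK293 and 21 and 69 in A375. The nuclear libraries held 32901 to 53775 counts in SHSY5Y, 9818 to 23651 in HEK293 and 9817 to 19178 in A375. The part of depth in these numbers of calls and in their overlap was not tested. SHSY5Y and HEK293 shared 20 higher entries (37.7% of those of SHSY5Y and 35.7% of those of HEK293) and 62 lower entries (57.4% and 50.8%), and 0 were called in opposite directions. SHSY5Y and A375 shared 3 higher (5.66% and 14.3%) and 34 lower entries (31.5% and 49.3%), and 6 entries lower in SHSY5Y nuclei were higher in A375 nuclei.

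Between SHSY5Y and HEK293 the effect differed for 2 entries, both higher in SHSY5Y (0.489%), and for 0 in the other direction (76 entries had an unadjusted p under 0.05 in either direction, and DESeq2 called 4 higher and 13 lower). let-7d-3p had a log2 fold change of 0.86 in SHSY5Y and -1.83 in HEK293 (difference 2.69, standard error 0.60, edgeR adjusted p = 0.034), with 170 nuclear and 94 cytoplasmic counts against 12 and 118. Its value in SHSY5Y was -0.40 with the columns exchanged, without a call, and the difference from HEK293 was not computed with that naming. miR-4707-5p had -0.13 in SHSY5Y and -3.87 in HEK293 (difference 3.74, standard error 0.85, edgeR adjusted p = 0.034). With library totals, or without any of 4 libraries of SHSY5Y (cytoplasmic replicate 1 or 2, nuclear replicate 1 or 2), no entry passed, and without nuclear replicate 3 only 1 did.

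Between SHSY5Y and A375 the effect differed for 28 entries, 7 more on the nuclear side in SHSY5Y (1.71%) and 21 more on the cytoplasmic side (5.13%). The 7 were 3 with library totals, 2 without nuclear replicate 2 and 4 without cytoplasmic replicate 1, nuclear replicate 1 or nuclear replicate 3. The abundant cytoplasmic entries of SHSY5Y were among the 21. miR-4516 had a log2 fold change of -2.41 in SHSY5Y and 1.41 in A375 (difference -3.81, standard error 0.37, edgeR adjusted p = 4.52e-08), with 619 nuclear and 3098 cytoplasmic counts in SHSY5Y against 193 and 101 in A375. miR-4284 had -2.15 and 2.08 (difference -4.23, standard error 0.67, edgeR adjusted p = 1.49e-04). miR-1248, on the other side, had 3.24 in SHSY5Y and 0.21 in A375 (difference 3.04, standard error 0.84, edgeR adjusted p = 0.027), and the A375 libraries held only 12 nuclear and 15 cytoplasmic counts of it. miR-12135 had 2.16 and -0.35 (difference 2.50, standard error 0.74, edgeR adjusted p = 0.041).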

How the data were processed

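Small RNA libraries of SHSY5Y, HEK293 and A375 fractions and of AGO1-4 IP were sequenced in pools. Each library of a pool had its own 3′ adapter, and the same adapters were used again in other pools. The authors trimmed adapters with cutadapt, mapped reads to human miRNAs with Bowtie2 (build hg38 in the submitters' processing notes) and counted them with bedtools, and deposited 1 table of raw counts per miRNA entry, the unit used here. Versions of Bowtie2 and bedtools and how reads fitting several entries were counted are not given in the sources used here. Averages published with the study served only to define the exchanged columns, and neither their values nor its comparisons were used.

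Counts were tested with edgeR 4.0.16 (R 4.3.3, limma 3.58.1), quasi-likelihood with TMM scaling, over the 11 SHSY5Y fraction libraries in 4 groups, as nucleus minus cytoplasm of subconfluent cells. The confluent nuclear library with 31 counts was left out. Entries needed 10 counts in 3 libraries. Differences from confluent cells were tested as an interaction in that fit, and differences from HEK293 and A375 in a fit of 18 subconfluent libraries, with the Benjamini-Hochberg adjustment over all entries at 0.05. DESeq2 1.42.0, library totals, no filter, the replicate number as a block, single libraries left out, the 6 libraries alone, loess offsets for GC content (span 0.75), the near-empty library kept, exchanged columns and IP-detected entries alone were alternatives. The IP-detected class was also drawn with 10 counts in all 6 IP libraries or 100 counts in 3.

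Named entries were the 12 largest rises and falls that were called, without overlap and with at least 100 CPM, the 10 most abundant entries of each fraction, their other arms, list members and up to 4 entries per interaction. Entries, lists and tests were chosen with earlier results of these data known. The test was checked on 5 simulated data sets, where it recovered 62.5% of 2-fold and 96.9% of 4-fold changes, and 1.27% of calls were false. An entry that was not called may therefore still differ by 2-fold. Totals of 20007 to 53775 counts per library in subconfluent SHSY5Y limit the precision of entries with few counts. The nuclear libraries set beside them, of confluent SHSY5Y and of subconfluent HEK293 and A375, held fewer, 9817 to 23651 counts. Intervals are exact at 95% and, like the floor of 3 counts over a group, cover counting error only.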

Additional observations from a re-analysis of the deposited data

Results flagged for a closer look

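The effect of localization differed between subconfluent and confluent SHSY5Y cells for miR-619-5p, by -3.23 on the log2 scale (edgeR adjusted p = 0.0017). The entry had 130 nuclear and 84 cytoplasmic counts in subconfluent cells, against 108 and 17 in confluent cells, the 108 from 2 libraries.

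Between SHSY5Y and HEK293 the effect differed for let-7d-3p by 2.69 and for miR-4707-5p by 3.74 (edgeR adjusted p = 0.034 for each). let-7d-3p had -0.40 in SHSY5Y with the columns exchanged. miR-4707-5p had 34 nuclear and 38 cytoplasmic counts in SHSY5Y, against 9 and 354 in HEK293. Both lost the call in 5 of the 6 fits that left out a SHSY5Y library and with library totals.

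Between SHSY5Y and A375 the abundant entries miR-4516 (-3.81) and miR-4284 (-4.23) and also miR-6765-5p (-5.45) were further on the cytoplasmic side in SHSY5Y, and miR-1248 (3.04) and miR-12135 (2.50) further on the nuclear side. miR-6765-5p had 13 nuclear and 100 cytoplasmic counts in SHSY5Y, against 13 and 3 in A375, a ratio of shares there of 5.91 with a 95% exact counting interval of 1.62 to 32.3. The remaining 4 differences rested on A375 groups without a count, so their fitted values of -7.49 (miR-1909-3p), -5.46 (miR-425-3p), 7.02 (miR-939-5p) and 7.14 (miR-6865-5p) depend on the prior count and are no bounds. Against a floor of 3 counts over the group, miR-1909-3p was at least 6.36-fold higher and miR-425-3p at least 3.18-fold higher in A375 nuclei than in A375 cytoplasm, while miR-939-5p was at least 6.85-fold and miR-6865-5p at least 4.65-fold lower. These bounds leave out the counting error of the group with counts, and the 95% exact lower limits of the same 4 ratios, which include it, were 4.52, 1.96, 5.21 and 3.42. In SHSY5Y their nuclear and cytoplasmic counts were 17 and 38, 24 and 25, 10 and 8, and 4 and 2 in that order of entries.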

How the results depend on the processing

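Of 727 values of named entries over the alternatives, 621 kept their direction and side of the threshold, 90 lost the call, 8 gained it and 8 changed sign. These values leave out entries named only as list members. Among these values the sign changed with the columns exchanged for miR-92a-3p (-0.22), miR-23b-3p (-0.052), miR-27a-5p (1.55), miR-1268b (0.011), miR-619-5p (-1.28) and let-7d-3p (-0.40), and with GC offsets for miR-4707-5p (1.28) and miR-1909-3p (0.072). Over all called entries, 66 of the 75 higher and 107 of the 120 lower ones kept their sign with the columns exchanged. The list members miR-19b-1-5p, miR-615-5p and miR-1260b were among those that did not. The 75 higher entries became 42 with library totals and 13 with IP-detected entries alone, and the 120 lower ones 58 with GC offsets, 58 with exchanged columns and 19 with IP-detected entries alone. The fits with fewer entries or samples test fewer, and otherwise the cause was not tested. Fits without 1 library gave 74 to 113 higher and 82 to 103 lower entries, and shares differing by -24.8 to -19.6 percentage points.

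For the difference from confluent cells (0 higher, 1 lower), DESeq2 gave 3 higher, library totals 1 and 19, no filter 2 and 2, the replicate block 2 and 3, the near-empty library 2 and 3, and fits without 1 library 1 to 5 higher and 1 to 3 lower. For the difference from HEK293 (2 and 0), DESeq2 gave 4 and 13, library totals 0 higher, and fits without 1 library 0 to 2 higher and 0 lower. For the difference from A375 (7 and 21), library totals gave 3 and no filter 2 higher, and fits without 1 library 2 to 5 higher and 16 to 29 lower.

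Deviations from the group mean had r of 0.097, -0.0046 and 0.17 between replicates with the same number. Between replicates with different numbers r was -0.19 to 0.094. These values do not settle whether the numbers pair the libraries, and the main test did not take them to do so. With the replicate block 74 entries were higher and 119 lower. Entries with few counts are limited by depth.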
